A study of Mus musculus with 24 samples.

Results

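The BMP response genes and receptors examined here were the 4 Id genes (Id1, Id2, Id3 and Id4), the inhibitory Smads Smad6 and Smad7, and the receptor genes Bmpr1a, Bmpr1b, Acvr2a and Acvr2b. These 10 genes were chosen by name, as a readout of BMP signaling on each side of the molar germ, out of 56748 genes in the deposited table of read counts, and all 10 were found by gene identifier. The table holds 24 libraries in 8 groups of 3, made from dental mesenchyme of the mandibular first molar germ of ICR mouse embryos, with no transgene and no treatment in any group. Mesenchyme was separated from epithelium with dispase II. Cap-W and Bell-W are undivided, at the cap (E13) and bell (E15) stages, Cap-L, Cap-B, Bell-L and Bell-B are lingual and buccal parts cut apart with a fine needle at those stages, and the lingual and buccal cap stage parts kept in vitro for 2 days are called Cap-L+2D and Cap-B+2D. Embryos came from 3 pregnant mice, and the sources used here do not say how many germs were pooled into a library or whether the 3 libraries of a group came from separate animals, so the p-values measure the spread between libraries, which may be technical. The series' notes call Cap-W and Bell-W whole germs while their labels name mesenchymal cells, and epithelial markers summed to 292 to 439 CPM in Cap-W and 396 to 442 CPM in Cap-L.

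BMPs bind pairs of type I and type II receptors on the cell surface. The type I receptor then phosphorylates Smad1, Smad5 and Smad9, which enter the nucleus with Smad4 and switch on target genes, among them the Id genes. Id proteins bind E proteins and keep them off DNA, and Smad6 and Smad7, which are also induced by the pathway, block it inside the cell. In the molar germ BMPs pass between epithelium and mesenchyme and act in the mesenchyme before cusps form.

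Promoter windows from RefSeq reached from 250 bases before to 50 bases after a gene's annotated start. They were examined for 8 of the 10 genes, all but Id1 and Smad7. Shown are 3 of the 4 whose window held a Smad-bound sequence element, those of the response genes, and that of the receptor gene Bmpr1a was described only. Each of the 10 windows for these 8 genes (Bmpr1b has 3) had 1 exact match in GRCm39, the build of the count table. Windows were searched for the GC-rich element GGCGCC, known as a binding site of BMP-activated Smads, and for the palindrome GTCTAGAC, which is bound by Smad3 and Smad4. Both read the same on both strands and do not overlap in these windows. GGCGCC occurred in the windows of Id2, Id4 and Bmpr1a, and in 11.9% of 32851 mouse promoter windows of the same length. GTCTAGAC occurred in the window of Smad6 and in 0.213% of all windows. Windows of Id3, Bmpr1b, Acvr2a and Acvr2b held neither sequence. Shown 5′ to 3′ with the element in capitals are the windows of Id2 (chr12:25146042-25146341, minus strand, 211 of 300 bases inside annotated Id2 exons), Id4 (chr13:48414342-48414641, plus strand, ahead of the annotated Id4 exons) and Smad6 (chr9:63929292-63929591, minus strand, 50 bases inside annotated Smad6 exons).
Id2: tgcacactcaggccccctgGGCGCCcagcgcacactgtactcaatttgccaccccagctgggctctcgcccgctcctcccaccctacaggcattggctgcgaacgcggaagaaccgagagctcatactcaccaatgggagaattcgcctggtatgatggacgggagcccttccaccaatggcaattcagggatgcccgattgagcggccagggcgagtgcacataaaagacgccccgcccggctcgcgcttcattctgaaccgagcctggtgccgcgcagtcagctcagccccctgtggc
Id4: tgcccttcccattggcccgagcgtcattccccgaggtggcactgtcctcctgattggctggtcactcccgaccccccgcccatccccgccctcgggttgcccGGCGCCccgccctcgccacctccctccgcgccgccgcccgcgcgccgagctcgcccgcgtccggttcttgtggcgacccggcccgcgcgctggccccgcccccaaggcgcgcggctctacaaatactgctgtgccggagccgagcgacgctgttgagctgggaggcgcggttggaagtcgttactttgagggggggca
Smad6: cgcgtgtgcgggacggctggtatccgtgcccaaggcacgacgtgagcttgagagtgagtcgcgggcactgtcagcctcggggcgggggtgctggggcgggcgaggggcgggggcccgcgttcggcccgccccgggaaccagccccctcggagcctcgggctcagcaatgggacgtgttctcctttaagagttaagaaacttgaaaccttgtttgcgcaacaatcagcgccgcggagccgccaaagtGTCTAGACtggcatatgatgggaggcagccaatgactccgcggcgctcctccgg

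Between 20581720 and 39266497 read pairs were counted on genes per library. Levels are given in CPM, read counts relative to library size after scaling with edgeR's TMM factors over all 24 libraries, and levels of different genes are compared only per kilobase of exon. Every one of 10 dental mesenchyme markers was detected in each library, with a summed level between 2176 and 4307 CPM. Markers of other cell types differed between the groups. The 8 skeletal muscle markers summed to 8.83 to 20.8 CPM in the undivided germs and were higher in buccal than in lingual parts each time. Their sums were 22.3 to 23.0 CPM in Cap-L and 232 to 253 in Cap-B, 125 to 134 in Bell-L and 979 to 1010 in Bell-B, and 338 to 361 in Cap-L+2D and 4095 to 4371 in Cap-B+2D. Epithelial markers (7 genes) were detected in every group, and Bell-W varied most, between 439.5 and 1761 CPM. In bulk RNA, fewer cells of a type and less RNA per cell cannot be told apart. Log2 fold changes are buccal over lingual, bell over cap, and cultured over fresh. A gene was called at an edgeR adjusted p under 0.05 with an absolute log2 fold change over 0.5. With 3 libraries against 3, an exact permutation test of a single gene cannot go below p = 0.1.

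At the cap stage the Id genes leaned to the lingual side and the receptor genes to the buccal side. Of the 10 genes 2 were called higher on the lingual side (Id2 and Id4) and 2 on the buccal side (Bmpr1b and Acvr2b), beside 7.1% and 10.4% of the 20653 genes tested. The share called in either direction was 17.5%. The 3 libraries of one side did not overlap those of the other in 8 of the 10 genes, which was so in 52.4% of all genes tested.

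Id2 (ENSMUSG00000020644, chromosome 12, 25143798 to 25147139), which binds E proteins, stood at 122, 129 and 113 CPM in the Cap-L libraries. Cap-B held 71.2, 68.3 and 68.8 CPM, so that every lingual library lay above every buccal one. The log2 fold change was -0.78 (standard error, SE, 0.05, edgeR adjusted p = 3.75e-10), a 1.72-fold higher lingual level. Id4 (ENSMUSG00000021379, chromosome 13, 48414704 to 48419502) read 20.7, 20.3 and 18.4 CPM in Cap-L and 12.2, 11.7 and 10.4 CPM in Cap-B, again without overlap (log2 fold change -0.77, SE 0.08, edgeR adjusted p = 2.03e-07). Of its exon bases 4.44% lie in other annotated genes, where read pairs were left uncounted.

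Id1 and Id3 leaned the same way by less. Id1 (ENSMUSG00000042745, chromosome 2, 152578171 to 152579330), often used as an index of BMP activity, had 26.9, 33.8 and 26.2 CPM in Cap-L and 20.2, 20.5 and 21.1 CPM in Cap-B. Its log2 fold change of -0.47 (SE 0.08, edgeR adjusted p = 1.17e-04) passed the adjusted p and stopped short of the limit on the fold. Leaving out Cap-L replicate 1 or replicate 3 brought it to -0.52 and -0.54, past that limit. Id3 (ENSMUSG00000007872, chromosome 4, 135870808 to 135873066) ranged from 115 to 140 CPM in Cap-L and from 98.6 to 104 CPM in Cap-B, with a log2 fold change of -0.27 (SE 0.06).

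**Figure D1:**
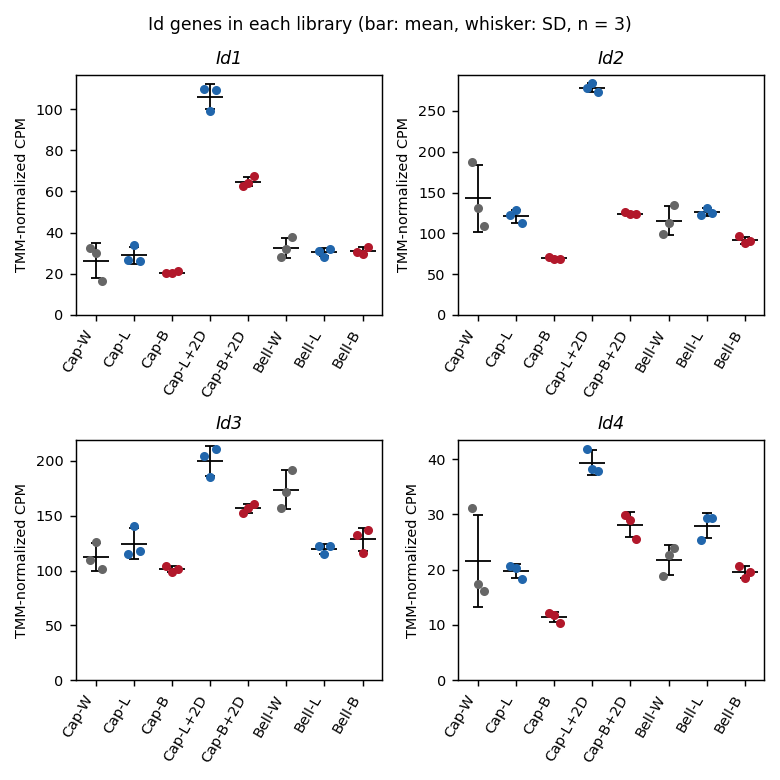
TMM-normalized CPM (vertical axis, linear from 0) of the 4 Id genes in each of 24 libraries, by group (horizontal axis). Points are libraries (grey undivided, blue lingual, red buccal), black bars are means and whiskers are SD with n = 3. Cap-L+2D has the highest mean of the 8 groups in all 4 panels, up to 106 CPM for Id1 and 278 CPM for Id2, and Cap-B the lowest.

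The inhibitory Smads did not share this lean. Smad6 (ENSMUSG00000036867, chromosome 9, 63860358 to 63929341), which acts mainly on BMP receptors, lay between 26.8 and 30.4 CPM in Cap-L and between 25.9 and 27.9 CPM in Cap-B, and the groups overlapped (log2 fold change -0.08, 95% interval -0.20 to 0.05). Smad7 (ENSMUSG00000025880), which also blocks TGF-beta and activin receptors, was 34.9 to 36.6 CPM in Cap-L and 35.4 to 37.1 CPM in Cap-B and differed by 0.05 on the log2 scale (95% interval -0.05 to 0.16). A difference of 0.5 lies outside both intervals.

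Bmpr1b (ENSMUSG00000052430, chromosome 3, 141542897 to 141875186), a type I receptor, gave 1.72, 2.09 and 1.98 CPM in Cap-L, from 48 to 75 read pairs a library. Cap-B gave 5.19, 5.61 and 5.49 CPM, all above every lingual value. Its buccal level was 2.85-fold higher (log2 fold change 1.51, SE 0.13, edgeR adjusted p = 2.05e-08). Acvr2b (ENSMUSG00000061393, chromosome 9, 119231184 to 119264061), a type II receptor for activins and BMPs, read 10.6, 9.88 and 13.3 CPM in Cap-L and 18.1, 18.8 and 17.2 CPM in Cap-B (log2 fold change 0.71, SE 0.09, edgeR adjusted p = 6.60e-06). Bmpr1a (ENSMUSG00000021796, chromosome 14, 34132691 to 34225298), the other BMP type I receptor of the set, was 147 to 159 CPM in Cap-L and 176 to 183 CPM in Cap-B, without overlap, and its log2 fold change of 0.26 (SE 0.05) was under the limit on the fold. Of its exon bases 4.57% lie in another annotated gene. Acvr2a (ENSMUSG00000052155, chromosome 2, 48704121 to 48793281) was 39.4 to 42.4 CPM in Cap-L and 43.7 to 46.5 CPM in Cap-B, a log2 fold change of 0.17 (SE 0.05).

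At the bell stage Id1 and Id3 no longer leaned to the lingual side, and the difference in Bmpr1b was larger, as tested in interactions. Calls were made for 2 of the 10 genes, Id4 on the lingual side and Bmpr1b on the buccal side, beside 12.9% of 21181 genes tested (6.88% lingual and 6% buccal). Libraries did not overlap in 6 of the 10 genes and in 45.5% of all genes tested.

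Bmpr1b stood at 1.10, 1.28 and 0.997 CPM in Bell-L and at 9.25, 9.25 and 8.57 CPM in Bell-B. All buccal libraries lay several-fold above all lingual ones, and the buccal level was 8.02-fold higher (log2 fold change 3.00, SE 0.13, edgeR adjusted p = 1.89e-22). Id4 read 25.4, 29.3 and 29.3 CPM in Bell-L and 20.7, 18.4 and 19.5 CPM in Bell-B (log2 fold change -0.52, SE 0.06, edgeR adjusted p = 1.77e-09). That value sat just past the limit on the fold, and without Bell-L replicate 2, Bell-L replicate 3 or Bell-B replicate 2 it was -0.49, -0.48 and -0.48, no longer called.

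Id2 was 122, 131 and 125 CPM in Bell-L against 96.5, 88.2 and 90.0 CPM in Bell-B, with no overlap and a log2 fold change of -0.46 (SE 0.04). Id1 overlapped between the sides, from 28.3 to 32.1 CPM in Bell-L and from 29.7 to 33.1 CPM in Bell-B (log2 fold change 0.03, 95% interval -0.08 to 0.14). Id3 overlapped as well (log2 fold change 0.10, SE 0.04). Among receptors Acvr2b differed by 0.41 (SE 0.08) and Acvr2a by 0.24 (SE 0.05) toward the buccal side, both under the limit on the fold, and Bmpr1a by -0.05 (95% interval -0.12 to 0.02). Smad6 overlapped between the sides (-0.01, 95% interval -0.12 to 0.10), and Smad7, from 27.8 to 29.2 CPM in Bell-L and 30.8 to 33.2 CPM in Bell-B, had a log2 fold change of 0.18 (SE 0.05), not called.

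After 2 days of culture, Id1 and Id2 stood higher in the lingual part and 3 receptor genes in the buccal part. Calls were made for 5 of the 10 genes, Id1 and Id2 on the lingual side and Bmpr1b, Acvr2a and Acvr2b on the buccal side, beside 25.1% of 21195 genes tested. Lingual and buccal calls each made up 12.5% of genes tested. Libraries did not overlap in 9 of the 10 genes and in 59.1% of all genes.

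Id2 reached 278, 284 and 273 CPM in Cap-L+2D and 126, 124 and 123 CPM in Cap-B+2D. The lingual level was 2.25-fold higher (log2 fold change -1.17, SE 0.04, edgeR adjusted p = 3.36e-19), with a gap between the groups many times their spread. Id1 stood at 109.6, 98.9 and 109.4 CPM in Cap-L+2D and 62.7, 64.3 and 67.4 CPM in Cap-B+2D (log2 fold change -0.72, SE 0.05, edgeR adjusted p = 6.56e-13). Id4 (-0.48, SE 0.06), Smad6 (-0.48, SE 0.06) and Id3 (-0.36, SE 0.04) had log2 fold changes on the lingual side that passed the adjusted p without reaching the limit on the fold. Smad7 had one of -0.13 (SE 0.05). For Id4 and Smad6 the limit on the fold was passed in some fits with 1 library left out, of Cap-L+2D or Cap-B+2D.

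Bmpr1b was 2.96, 2.21 and 1.82 CPM in Cap-L+2D and 22.0, 21.4 and 21.2 CPM in Cap-B+2D, 9.45-fold higher on the buccal side (log2 fold change 3.24, SE 0.10, edgeR adjusted p = 5.20e-19). Acvr2b stood at 2.67, 2.60 and 3.29 CPM in Cap-L+2D and at 8.84, 9.09 and 9.37 CPM in Cap-B+2D (log2 fold change 1.65, SE 0.11, edgeR adjusted p = 1.20e-12). Acvr2a, the other activin type II receptor, read 36.5, 35.4 and 35.0 CPM in Cap-L+2D and 63.1, 61.8 and 57.0 CPM in Cap-B+2D (log2 fold change 0.76, SE 0.05, edgeR adjusted p = 7.25e-13). Of its exon bases 7.84% lie in Orc4, where read pairs were left uncounted. All 3 receptors were without overlap between the sides, while Bmpr1a overlapped (0.06, 95% interval -0.02 to 0.13).

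**Figure D2:**
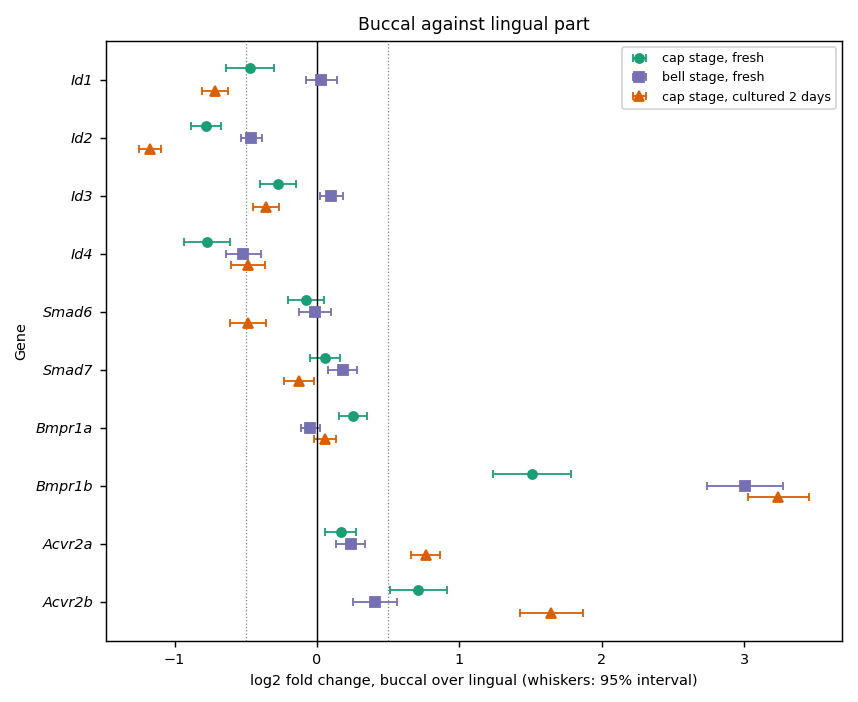
Log2 fold change, buccal over lingual (horizontal axis), of the 10 genes (vertical axis) at the cap stage, at the bell stage and after culture of cap stage parts. Points are edgeR estimates from 3 libraries against 3, whiskers are 95% intervals, and dotted lines mark the limit of 0.5 either way. Bmpr1b lies furthest to the buccal side in each comparison (1.51, 3.00 and 3.24). Id2 lies on the lingual side each time (-0.78, -0.46 and -1.17).

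The change of a side difference with stage or culture was tested as an interaction, over 12 libraries each and with no limit on the fold. With stage, 5 of the 10 genes passed an edgeR adjusted p under 0.05, beside 32.5% of 21931 genes tested (14.5% toward the buccal and 18% toward the lingual side). Id1 (0.50, SE 0.10), Id2 (0.31, SE 0.06) and Id3 (0.37, SE 0.08) moved toward the buccal side on the log2 scale, as did Bmpr1b (1.49, SE 0.19), while Bmpr1a moved the other way (-0.31, SE 0.06). With culture, 8 of the 10 passed, beside 35.5% of 22098 genes tested (16% and 19.5%). Bmpr1b (1.73, SE 0.19), Acvr2b (0.93, SE 0.15), Acvr2a (0.59, SE 0.07) and Id4 (0.28, SE 0.10) moved toward the buccal side. Smad6 (-0.41, SE 0.09), Id2 (-0.39, SE 0.06), Id1 (-0.25, SE 0.10) and Bmpr1a (-0.21, SE 0.06) moved toward the lingual side. The Id1 interaction with culture (edgeR adjusted p = 0.0481) was lost when any of 9 libraries was left out, with the replicate block and with DESeq2. With library totals in place of TMM, Id1 (-0.17) and Bmpr1a (-0.13) lost this call, 2 of the 4 toward the lingual side, and the median over all genes moved by 0.08. The Id4 interaction (edgeR adjusted p = 0.0294) was lost without any of 6 libraries and with DESeq2. With stage, Id4 (0.30) gained a call under library totals. In a fit of all 24 libraries, Bmpr1b and Id3 remained called with stage, and the 3 buccal receptors with culture.

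Several marker lists moved with these side differences. The 7 endothelial markers, all detected, summed to 511 to 521 CPM in Cap-L and 450 to 461 in Cap-B, to 633 to 651 in Bell-L and 575 to 589 in Bell-B, and to 411 to 416 in Cap-L+2D and 174 to 181 in Cap-B+2D. Immediate early genes, 7 markers of recent stimulation, summed to 3523 to 3645 CPM in Cap-L and 3586 to 3697 in Cap-B, but to 8241 to 8385 in Cap-L+2D and 5343 to 5661 in Cap-B+2D. Epithelial markers summed to 289 to 304 CPM in Cap-B against 396 to 442 in Cap-L, to 490 to 507 in Bell-B against 664 to 695 in Bell-L, and to 78.3 to 79.3 in Cap-B+2D against 297 to 327 in Cap-L+2D. Glial markers (6 genes) ran the other way, with Cap-L at 26.7 to 27.7 CPM and Cap-B at 61.3 to 66.3, Bell-L at 35.3 to 38.5 and Bell-B at 72.8 to 74.9, and Cap-L+2D at 16.7 to 17.9 and Cap-B+2D at 96.5 to 99.6. Macrophage markers (6 genes) summed to 54.3 to 57.4 CPM in Cap-L and 57.4 to 62.4 in Cap-B, 175 to 178 in Bell-L and 112 to 114 in Bell-B, and 213 to 219 in Cap-L+2D and 146 to 153 in Cap-B+2D. Cartilage markers (5 genes) stood at 260 to 277 CPM in Cap-L and 125 to 129 in Cap-B, between 49.7 and 52.8 in both bell stage parts, and at 243 to 269 in Cap-L+2D and 160 to 176 in Cap-B+2D. Col2a1 made up most of these sums, and Acan ran the other way after culture (8.19 CPM in Cap-L+2D, 33.8 in Cap-B+2D). Smooth muscle and pericyte markers (6 genes) were 454 to 474 CPM in Cap-L and 479 to 493 in Cap-B, 410.0 to 425 in Bell-L and 602 to 607 in Bell-B, and 926 to 982 in Cap-L+2D and 1555 to 1693 in Cap-B+2D. Acta2 was higher on the buccal side each time, as after culture (420 against 1087 CPM). Rgs5 was lower there at the cap stage (54.9 against 17.6) and after culture (23.6 against 5.57), and Cspg4 after culture (111 against 75.5). Bone markers (7 genes) were 3111 to 3350 CPM in Cap-L and 3809 to 3996 in Cap-B, 5487 to 5837 in Bell-L and 6247 to 6445 in Bell-B, and 10570 to 11470 in Cap-L+2D and 7906 to 8868 in Cap-B+2D. Col1a1 made up most of these sums, with means of 2294 CPM in Cap-L and 3478 in Cap-B. The other bone markers had higher means in Cap-L, as in Runx2 (443.5 against 241.3), Alpl (264.5 against 114.5) and Ibsp (119.5 against 35.5). At the bell stage Runx2, Sp7 and Alpl (297.9 against 148.9) were higher in Bell-L, and Col1a1, Ibsp and Spp1 in Bell-B. Cell cycle markers (6 genes) were 897 to 925 CPM in Cap-L and 943 to 952 in Cap-B, 904 to 909.6 in Bell-L and 1059 to 1083 in Bell-B, and 493 to 511 in Cap-L+2D and 643 to 662 in Cap-B+2D. Skeletal muscle markers, with 7 of 8 above 3 counts in every Cap-L library and 8 of 8 in the other lingual and buccal groups, were higher on the buccal side in all 3 comparisons, as was Bmpr1b. Cap-W, with a muscle sum of 14.0 to 20.8 CPM, held 3.00 to 3.58 CPM of Bmpr1b. The part of these cell types in the side differences was not tested.

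Receptor ratios within a library do not depend on the scaling between libraries. Per kilobase, Bmpr1b amounted to 1.34% ± 0.17 (SD, n = 3) of Bmpr1a in Cap-L and 3.20% ± 0.16 in Cap-B. Bell-L and Bell-B held 0.712% ± 0.09 and 5.90% ± 0.16. After culture the share was 1.31% ± 0.32 on the lingual and 11.6% ± 0.24 on the buccal side. Bmpr1a was thus the main of these type I receptors in every group, and the share of Bmpr1b was higher in each buccal group than in any lingual or undivided group. Acvr2b per Acvr2a was 39.6% ± 5.1 in Cap-L and 57.7% ± 4.2 in Cap-B, 40.1% ± 3.1 in Bell-L and 45.1% ± 2.9 in Bell-B, and 11.6% ± 1.7 in Cap-L+2D and 21.8% ± 1.8 in Cap-B+2D. This ratio was lower in the cultured groups than in all others, and its buccal libraries lay above the lingual ones at the cap stage and after culture, while the ranges of Bell-L (36.7% to 42.7%) and Bell-B (41.8% to 47.2%) overlapped.

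Among the Id genes, again per kilobase, Id4 was the least abundant, with group means between 5.25% and 10.9% of Id3. Id1 per Id3 was 35.8% ± 1.5 in Cap-L and 31.4% ± 1.2 in Cap-B, and 81.9% ± 1.5 in Cap-L+2D and 63.8% ± 0.87 in Cap-B+2D, so the cultured libraries lay above all fresh ones of the same side. Id2 per Id3 ranged between 48.8% in Bell-W and 102.7% in Cap-L+2D. Smad6 per Smad7 was 112.7% ± 5.4 in Cap-L and 103.2% ± 6.8 in Cap-B, with overlap, and 72.4% ± 5.0 in Cap-L+2D and 56.6% ± 7.1 in Cap-B+2D, without.

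**Figure D3:**
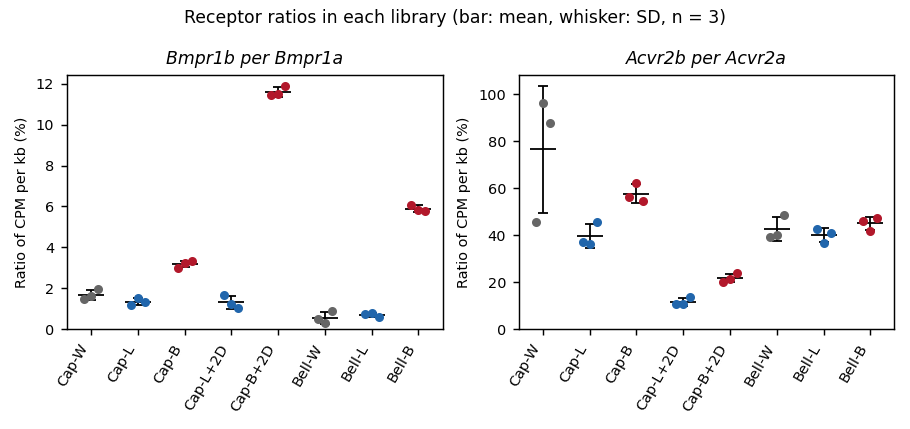
Ratio of CPM per kilobase within each library, in percent (vertical axes, linear from 0), for Bmpr1b over Bmpr1a and Acvr2b over Acvr2a, by group (horizontal axis). Points are libraries, bars are means and whiskers are SD with n = 3. Bmpr1b per Bmpr1a is highest in Cap-B+2D, at 11.4% to 11.9%, and stays under 2% in lingual and undivided libraries.

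All 4 Id genes rose with culture on both sides. In the lingual part 6 of the 10 genes were called between Cap-L and Cap-L+2D, with 5 higher after culture and 1 lower, beside 35.4% of 21425 genes tested (19.6% higher and 15.9% lower). In the buccal part 6 were called as well, 5 higher and 1 lower, beside 34.5% of 21992 genes (17.9% and 16.6%). Libraries did not overlap in 8 and in all 10 of the genes, and in 67.5% and 69% of all genes tested.

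Id1 rose 3.66-fold in the lingual part (log2 fold change 1.87, SE 0.07) and 3.10-fold in the buccal part (1.63, SE 0.05), the largest rise of any of the 10 genes on the lingual side. Id2 rose by 1.21 (SE 0.05) and 0.82 (SE 0.04) on the log2 scale, Id3 by 0.69 (SE 0.06) and 0.61 (SE 0.04), and Id4 by 0.99 (SE 0.07) and 1.29 (SE 0.07). Their edgeR adjusted p-values ran from 2.10e-10 to 8.45e-24. Smad7 rose in the lingual part, from 34.9 to 36.6 CPM fresh to 51.8 to 53.8 CPM cultured (log2 fold change 0.57, SE 0.05). With library totals in place of TMM, which moved the median of all genes by -0.15 there, Smad7 had 0.42 and was not called. Smad7 in the buccal part had a log2 fold change of 0.39 (SE 0.05), under the limit on the fold. Smad6 had a log2 fold change of -0.48 (SE 0.06, not called) in the buccal part and of -0.08 (95% interval -0.21 to 0.05) in the lingual part.

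Bmpr1b rose 3.91-fold in the buccal part (log2 fold change 1.97, SE 0.08, edgeR adjusted p = 2.60e-21), whereas its lingual log2 fold change was 0.24 (95% interval -0.13 to 0.60, not called). Acvr2b fell on both sides, 3.85-fold in the lingual part (log2 fold change -1.95, SE 0.12) and 2.01-fold in the buccal part (-1.01, SE 0.07). Acvr2a differed by -0.20 (SE 0.05) in the lingual and 0.40 (SE 0.05) in the buccal part, neither of them called. Bmpr1a differed by 0.31 (SE 0.04) and 0.11 (SE 0.04).

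Marker sums moved with culture too. In the lingual part skeletal muscle markers went from 22.3 to 23.0 CPM to 338 to 361 CPM. In the buccal part they went from 232 to 253 CPM to 4095 to 4371 CPM. Macrophage and immediate early sums, given above for each part, were also higher after culture. The 6 erythroid markers went from between 1533 and 1881 CPM in the fresh cap stage parts to between 16.9 and 26.5 CPM in the cultured ones, with 4 of 6 above 3 counts in every cultured library, and the 6 cell cycle markers went from 897 to 952 CPM to 493 to 662 CPM. Smooth muscle and pericyte markers (6 genes) went from 454 to 493 CPM to 926 to 1693 CPM. Acta2 rose most (11.1 to 420 CPM lingual, 83.3 to 1087 buccal), while Rgs5 fell (54.9 to 23.6 and 17.6 to 5.57). Tagln, Myh11, Cspg4 and Pdgfrb rose on both sides. The 7 bone markers went from 3111 to 3996 CPM to 7906 to 11470 CPM. Col1a1 (2294 to 8762 and 3478 to 7808), Alpl, Ibsp, Spp1 and Bglap rose, while Runx2 and Sp7 fell on both sides. The part of these cell types in the changes with culture was not tested.

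**Figure D4:**
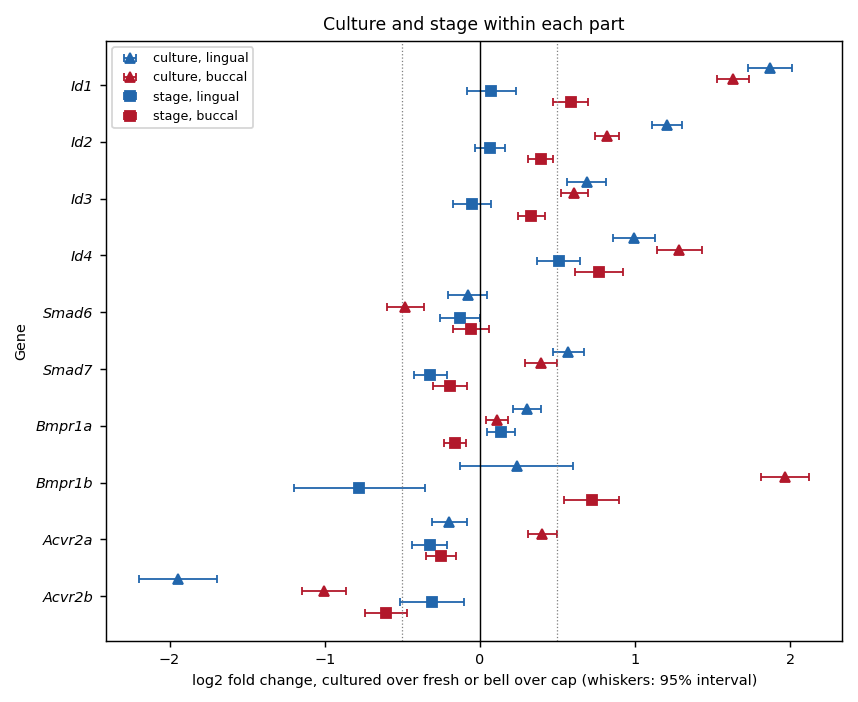
Log2 fold change (horizontal axis) of the 10 genes (vertical axis) with culture (triangles, cultured over fresh cap stage) and with stage (squares, bell over cap) in the lingual part (blue) and the buccal part (red). Points are edgeR estimates, whiskers are 95% intervals and dotted lines mark the limit of 0.5. All 4 Id genes lie to the right of that limit with culture on both sides, from 0.61 to 1.87, and Acvr2b to the left of it.

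Between the stages Id1 rose in the buccal part and Id4 on both sides. In the buccal part 4 of the 10 genes were called between Cap-B and Bell-B, 3 higher at the bell stage and 1 lower, beside 18.7% of 21992 genes tested (12% higher and 6.73% lower). Id4 rose by 0.77 (SE 0.08), Bmpr1b by 0.72 (SE 0.09) and Id1 by 0.59 (SE 0.06), and Acvr2b fell by 0.60 (SE 0.07) on the log2 scale. Id2 (0.39, SE 0.04) and Id3 (0.33, SE 0.04) had positive log2 fold changes below the limit on the fold. In the lingual part 2 of the 10 were called, beside 20% of 21425 genes (14.2% higher and 5.78% lower). Bmpr1b fell by 0.78 (SE 0.21, edgeR adjusted p = 0.00270), the reverse of its buccal change. Id4 rose by 0.51 (SE 0.07), a value that lay between 0.45 and 0.48 and was not called without Cap-L replicate 3, Bell-L replicate 2 or Bell-L replicate 3. Id1 (0.08, 95% interval -0.08 to 0.23), Id2 (0.07, 95% interval -0.03 to 0.16) and Id3 (-0.05, 95% interval -0.17 to 0.08) had intervals within 0.5 of 0 there. Smad7 had log2 fold changes of -0.32 (SE 0.05) in the lingual and -0.19 (SE 0.05) in the buccal part, Acvr2a of -0.32 (SE 0.06) and -0.25 (SE 0.05), and Bmpr1a of 0.14 (SE 0.04) and -0.16 (SE 0.04), none past the limit on the fold. Smad6 had -0.13 (SE 0.06) and -0.06 (SE 0.06). Libraries did not overlap in 9 of the genes in the buccal part and in 6 in the lingual part, against 55.4% and 55.9% of all genes tested. Macrophage, cartilage and skeletal muscle markers, with the sums given above for each part, differed between the stages as well. Macrophage and muscle sums were higher and cartilage sums lower in both bell stage parts. In the buccal part the lower cartilage sum came from Col2a1 (111.6 to 30.3 CPM). Sox9 (12.2 to 13.4), Acan (1.52 to 4.02) and Col9a1 (1.95 to 3.16) had higher means in Bell-B than in Cap-B. The macrophage marker Ptprc had a lower mean in Bell-B. Bone and erythroid sums were also higher there, the latter at 2164 to 2788 CPM against 1533 to 1881 CPM. Their part in the changes with stage was not tested.

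Libraries of the undivided germs spread widely, from 109 to 188 CPM for Id2 in Cap-W. Between Cap-W and Bell-W, 4 of the 10 genes were called, 1 higher at the bell stage and 3 lower, beside 14.5% of 20940 genes tested (10.3% higher and 4.21% lower). Bmpr1b fell from 3.50, 3.00 and 3.58 CPM to 0.808, 0.502 and 1.13 CPM (log2 fold change -2.04, SE 0.35, edgeR adjusted p = 0.00771), with no overlap. Bell-W libraries held 12 to 35 read pairs of Bmpr1b. Acvr2b fell from 16.6, 27.9 and 30.0 CPM to 10.7, 9.79 and 7.88 CPM (log2 fold change -1.41, SE 0.25, edgeR adjusted p = 0.00863). Id3 rose (0.61, SE 0.13, edgeR adjusted p = 0.0173) and Smad7 fell by 0.55 (SE 0.15, edgeR adjusted p = 0.0458). The Smad7 call was lost in 5 of the 6 fits that left out 1 library, and that of Id3 without Cap-W replicate 3 or Bell-W replicate 2, where 2 genes remained called. Epithelial and immediate early sums in Bell-W ran from 439.5 to 1761 CPM and from 2646 to 4886 CPM, and their part in these values was not tested.

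Set against the mean of the parts at the same stage, the undivided germ was higher in 4 of the 10 genes at the cap stage (Acvr2b by 0.83, Id2 by 0.66, Smad7 by 0.56 and Id4 by 0.53 on the log2 scale), beside 22.3% of 21215 genes tested, 9.7% higher and 12.6% lower. Cap-W replicate 1 carried part of this, with 188 CPM of Id2 and 31.1 CPM of Id4 against 109 to 131 CPM and 16.2 to 17.4 CPM in the other Cap-W libraries. Without it, Acvr2b alone was called, and Id4 was also lost without any 1 of the lingual or buccal libraries. Endothelial markers summed to 210 to 221 CPM in Cap-W and 450 to 521 in its parts, and immediate early genes to 1135 to 1457 CPM in Cap-W and 3523 to 3697 in its parts. Bone markers summed to 1170 to 1447 CPM in Cap-W and 3111 to 3996 in its parts, and cell cycle markers to 1364 to 1854 CPM in Cap-W and 897 to 952 in its parts. What these differences contribute was not tested. At the bell stage 1 of the 10 was called, Bmpr1b, 3.84-fold lower in Bell-W (log2 fold change -1.94, SE 0.22, edgeR adjusted p = 2.49e-04), beside 9.56% of 21887 genes (4.2% higher and 5.35% lower). Bell-W thus stood near Bell-L in Bmpr1b, and their libraries overlapped. Skeletal muscle markers (6 of 8 above 3 counts in every Bell-W library) summed to 8.83 to 18.7 CPM in Bell-W, under the 125 to 134 CPM of Bell-L, and their part was not tested.

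**Figure D5:**
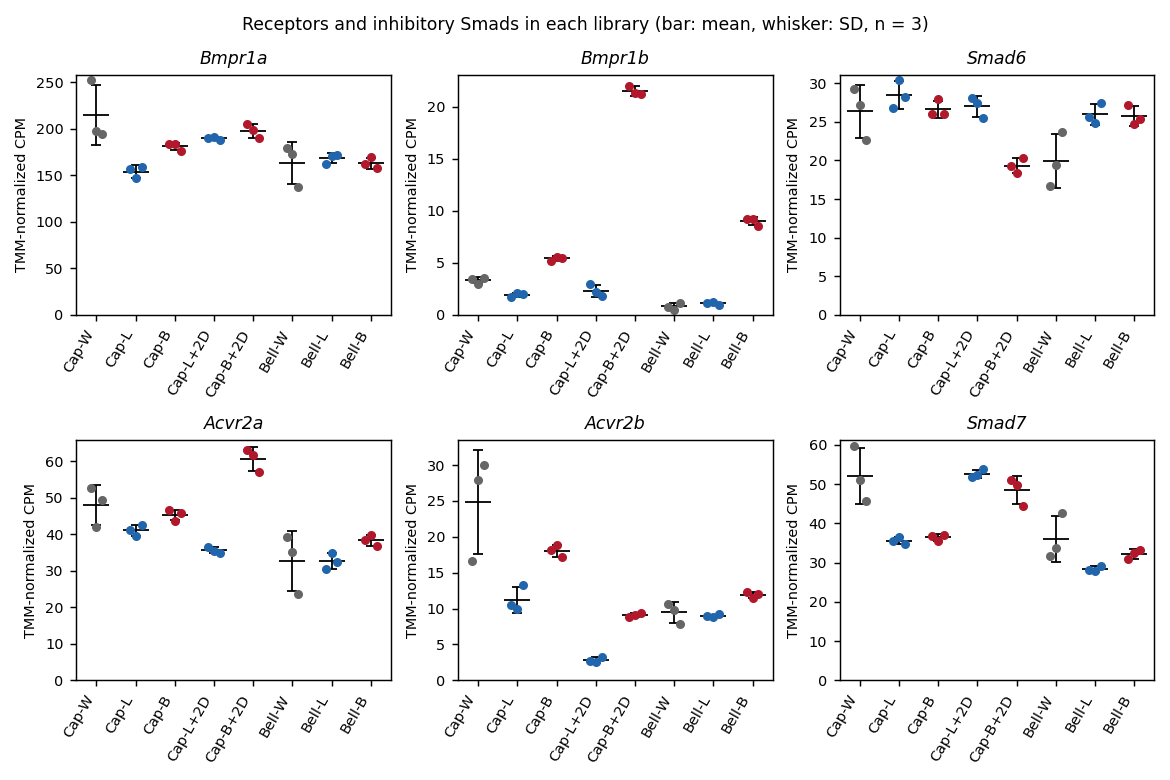
TMM-normalized CPM (vertical axes, linear from 0) of the 4 receptor genes and both inhibitory Smads in each of 24 libraries, by group (horizontal axis). Points are libraries (grey undivided, blue lingual, red buccal), bars are means and whiskers are SD with n = 3. Bmpr1b spans 26.5-fold between group means, from 0.813 CPM in Bell-W to 21.5 CPM in Cap-B+2D, while Bmpr1a spans 1.39-fold.

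Over all 8 groups the genes fell into a steady and a variable set. Group means of Bmpr1a spanned 1.39-fold, those of Smad6 1.48-fold, of Smad7 1.85-fold, of Acvr2a 1.86-fold and of Id3 1.97-fold. Id4 spanned 3.44-fold, Id2 4.01-fold, Id1 5.14-fold, Acvr2b 8.70-fold and Bmpr1b 26.5-fold. For Id1 the order ran from Cap-L+2D over Cap-B+2D to 6 fresh groups, and each of these 6 overlapped its neighbour in the order. For Id2, Cap-L+2D stood alone at the top, 5 groups from Cap-W (143 CPM) to Bell-W (116 CPM) overlapped their neighbours, and Bell-B and Cap-B followed without overlap. Bmpr1b ordered from Cap-B+2D over Bell-B, Cap-B and Cap-W without overlap, then Cap-L+2D with Cap-L, and Bell-L with Bell-W. Acvr2b had Cap-W and Cap-B at the top with overlap, and Cap-L+2D alone at the bottom.

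Genes most alike over the 24 libraries, by Pearson correlation of log2 CPM among the 14031 to 14032 more abundant genes, are named as a description. Libraries of a group share their tissue, so these are far fewer than 24 independent points. For Bmpr1b they were Lix1 (r = 0.977) and Pknox2 (r = 0.961), for Acvr2b Hipk2 (r = 0.968) and Helq (r = 0.966), and for Id1 Klf10 (r = 0.969), a gene induced by TGF-beta family ligands, and Manf (r = 0.962). The most alike gene was Gm6175 for Id2 (r = 0.953), Gm21399 for Id3 (r = 0.953), Prxl2c for Id4 (r = 0.951), Idh1 for Smad7 (r = 0.921), Resf1 for Bmpr1a (r = 0.937) and Utp14b for Acvr2a (r = 0.909). Smad6 had the weakest best match, Med26 (r = 0.828).

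Other genes of the pathway were followed in fixed lists. Their counts are to be read against the shares of all genes called higher on the lingual and buccal side, 7.1% and 10.4% for the cap stage, 6.88% and 6% for the bell stage and 12.5% on each side after culture. In lists this short a count of 1 is no result about the list. Among 7 other genes known to respond to BMP, 3 were called higher on the lingual and 1 on the buccal side of the cap stage germ. Those numbers were 1 and 2 in the bell stage germ and 4 and 2 after culture. Bambi, a decoy receptor induced by BMP, was 46.2 ± 3.4 CPM in Cap-L and 17.0 ± 0.39 in Cap-B, and 71.3 ± 3.3 in Cap-L+2D and 15.7 ± 0.04 in Cap-B+2D (SD, n = 3). Its log2 fold changes were -1.42, -0.59 and -2.18, in that order of comparisons, lower on the buccal side each time as Id2 was. Msx2, a homeobox gene of the germ, had a log2 fold change of -2.83 after culture (10.4 ± 0.12 against 1.45 ± 0.21 CPM). Lef1, a Wnt pathway factor that BMP4 can induce in dental mesenchyme, went the other way (0.72, 0.59 and 1.12). Median log2 fold changes of this list were -0.28, 0.08 and -0.62, beside medians between -0.01 and 0.00 over all genes tested.

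Among 15 BMP and activin ligand genes, 4 were called higher lingual and 2 higher buccal of the 13 tested at the cap stage, 2 and 1 of 11 at the bell stage, and 10 and 1 of 13 after culture. The list's median log2 fold changes were -0.35, -0.09 and -1.44. Bmp2 was 110.5 ± 1.4 CPM (SD, n = 3) in Cap-L+2D against 23.9 ± 1.3 in Cap-B+2D (log2 fold change -2.22), and 21.9 ± 1.2 in Bell-L against 8.14 ± 0.35 in Bell-B (-1.43). Gdf7 had the reverse lean (log2 fold changes 1.95, 1.02 and 2.46). Among 15 secreted antagonist genes, 13 of them tested each time, 4 were called on each side at the cap stage, 5 lingual and 1 buccal at the bell stage, and 7 and 1 after culture. Their median log2 fold changes were 0.18, -0.05 and -0.68. Fst, which binds activins, was 64.7 ± 0.48 CPM in Cap-L against 11.8 ± 0.17 in Cap-B, with a log2 fold change of -2.43 there and -2.09 after culture. Sostdc1, a BMP and Wnt antagonist, had one of -2.36 after culture.

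The other receptors of the family, with 5 genes tested in Cap-L against Cap-B and 6 in the other comparisons, had 1, 2 and 2 called higher on the lingual side. Acvrl1, a type I receptor best known from endothelium, was called each time (-0.73, -0.80 and -2.58) and stood at 96.0 ± 3.7 CPM in Cap-L+2D and 16.2 ± 0.57 CPM in Cap-B+2D, where endothelial markers also differed as given above. Of 6 co-receptors, 3, 1 and 2 were called higher on the buccal side, and 1 higher on the lingual side after culture. Hjv, a co-receptor known from skeletal muscle and liver, had log2 fold changes of 3.16, 2.90 and 3.48, and Rgma had 0.72 and 1.38 at the cap stage and after culture. Of the 6 activating and common Smads, Smad9 was lower on the buccal side at the cap stage and after culture (-0.79 and -1.01). The 8 intracellular inhibitors had log2 fold changes between -0.35 and 0.20 at the cap stage, 1 was called at the bell stage (Tob1, -0.61) and 3 after culture, all higher on the lingual side. Of the 3 E proteins that Id proteins bind, Tcf4 was called higher on the buccal side each time (1.28, 0.94 and 1.21), from 205 ± 20 CPM in Cap-L to 721 ± 15 CPM in Cap-B+2D (SD, n = 3).

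With culture, 9 of 13 antagonist genes tested rose in the lingual part, and 6 rose and 4 fell in the buccal part. Of all genes tested, 19.6% rose and 15.9% fell in the lingual part and 17.9% and 16.6% in the buccal part. Noggin (Nog), which binds BMPs outside the cell, was among them (log2 fold changes 2.45 and 2.03). Of 13 and 12 ligand genes tested, 7 rose and 4 fell in the lingual part and 3 rose and 4 fell in the buccal part. Inhbb, an activin subunit, rose 6.50-fold and 2.95-fold, and Inhba, another, fell by 1.55 on the log2 scale in the buccal part. Between the stages, 8 of the 13 antagonist genes tested rose and 2 fell in the lingual part, while 6 rose on the buccal side, where Sostdc1 rose by 2.26. Among all genes, 14.2% rose and 5.78% fell in the lingual and 12% and 6.73% in the buccal part. Msx2 rose at the bell stage by 2.63 in the lingual and 3.10 in the buccal part.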

How the data were processed

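The authors deposited 1 table of raw read counts per gene for the 24 libraries, with no normalization. The submitters' notes name FastQC 0.12.1, Trimmomatic 0.39, Bowtie 1.2.3, Subread 2.0.3 and the build GRCm39. By the header, featureCounts counted read pairs over Ensembl exons without regard to strand, leaving out pairs that matched several places or several genes, so genes with shared or antisense exons can be undercounted or mixed. The labels and the methods name different library kits. Of 56748 gene identifiers 56017 have a symbol. Per the deposited table, the column of exon lengths (other) gave levels per kilobase.

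Counts were tested as deposited with edgeR 4.0.16 in R 4.3.3 (TMM, filterByExpr, quasi-likelihood test, Benjamini-Hochberg over all genes tested, two-sided), after a check on simulated data. Side, stage in the undivided germ and the interactions used the libraries compared, and stage and culture within a side shared 1 fit of 9 libraries. Undivided germs were set against the mean of both parts. Each comparison within a side uses the same fresh cap stage libraries as its control. Intervals are 95% and cover the spread between libraries. Totals of 20581720 to 39266497 (median 27677163) put 3 counts at 0.0764 to 0.146 CPM. Alternatives were RLE normalization, library totals, no filter, DESeq2 1.42.0, a replicate block, all 24 libraries in 1 fit, no limit on the fold, and fits that left out 1 library each. The 10 genes and the context lists were chosen with earlier results of these data known. The 10 genes are named throughout, and at most 3 called genes with the largest change are named from each context list in a comparison. The 2 most alike genes of a member were ranked by Pearson correlation of log2 CPM (prior count 2) among genes with a mean of at least 2. Sequences are RefSeq promoter windows.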

Additional observations from a re-analysis of the deposited data

Results flagged for a closer look

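Side differences that changed with stage were found in Id1 (0.50 on the log2 scale, positive toward the buccal side), Id2 (0.31), Id3 (0.37), Bmpr1a (-0.31) and Bmpr1b (1.49). Each passed an edgeR adjusted p under 0.05 in the test of the difference between the cap and bell stage, over 12 libraries. Side differences that changed with culture were found in the same kind of test in Id1 (-0.25), Id2 (-0.39), Id4 (0.28), Smad6 (-0.41), Bmpr1a (-0.21), Bmpr1b (1.73), Acvr2a (0.59) and Acvr2b (0.93). For Id4 the lingual lean was -0.77 in fresh and -0.48 in cultured cap stage parts, the reverse of the change in Id2, from -0.78 to -1.17. Groups of 3 libraries are too small to test 1 library as standing apart.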

How the results depend on the processing

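Of 1840 values of single genes under alternatives, 1700 kept their direction and their side of the threshold, 60 lost a call, 58 gained one and 22 changed sign, and of 184 counts of called members 159 lay within 1.5 times the count reported. Without the limit on the fold, 8 members passed for side at the cap stage, 7 at the bell stage, 9 after culture, 6 and 9 for stage in the lingual and buccal part, 10 for culture in the buccal part and 3 for the undivided germ against the parts at the bell stage. With library totals, 1 was called for side at the bell stage, 1 for stage in the lingual part and 2 for the undivided germ at the bell stage. Stage in the lingual part had 1 call without the filter and 1 in the fit of all 24 libraries, where the interactions had 2 (stage) and 3 (culture). Leaving out 1 library gave 4 to 5 calls for side at the cap stage, 1 to 2 at the bell stage and 5 to 7 after culture, 5 to 7 and 6 to 10 for the interactions with stage and culture, 2 to 5, 1 to 2 and 4 for stage in the undivided, lingual and buccal tissue, 6 and 6 to 7 for culture in the lingual and buccal part, and 1 to 4 and 1 to 2 for the undivided germ at the cap and bell stage. Signs changed, in values near 0 and not called, with library totals for Smad6 side at the bell stage (0.0092), Id3 in the undivided germ at the cap stage (-0.0098, and -0.015 without the filter) and Bmpr1a in the undivided germ at the bell stage (0.026). They also changed with 1 library left out for Id1 side at the bell stage (-0.021 to 0.070), Smad6 side at the bell stage (-0.052 to 0.031), Id1 and Id3 stage in the lingual part (-0.0018 to 0.21 and -0.11 to 0.044), Id4 stage in the undivided germ (-0.15 to 0.35), Id1, Id3 and Smad6 in the undivided germ at the cap stage (-0.021 to 0.37, -0.066 to 0.092 and -0.12 to 0.052), and Id1, Id2, Bmpr1a and Acvr2a there at the bell stage (-0.05 to 0.17, -0.031 to 0.20, -0.10 to 0.079 and -0.28 to 0.068). The cause was not tested.

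Over all genes, dropping the limit on the fold raised the calls at the cap stage from 3611 to 8746, at the bell stage from 2729 to 7846, after culture from 5315 to 11569, for stage and culture in the lingual part from 4290 to 10725 and 7593 to 14126 and in the buccal part from 4114 to 10557 and 7598 to 14768, and in the undivided germ against the parts from 4727 to 8517 and 2092 to 4720. The fit of all 24 libraries gave 2581 in place of 7137 for the interaction with stage, 4048 in place of 7842 with culture, and 5887 in place of 3037 for stage in the undivided germ, where 1758 were called without Cap-W replicate 3 and 1832 without Bell-W replicate 2. Without Bell-W replicate 3, 3362 were called against the parts at the bell stage. Positive calls were 3370 of 8344 with library totals against 4196 of 7593 for culture in the lingual part, 4048 of 7309 against 3180 of 7137 for the interaction with stage, and 4853 of 8224 against 3526 of 7842 with culture.

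Replicate numbers were not used to pair the libraries in the main fits. Correlations of same-numbered deviations ran from -0.242 to 0.325, and no comparison had all of them over 0.1. With 3 libraries a group, such correlations cannot show whether same-numbered libraries share animals. With the replicate block 3 members were called for stage in the undivided germ, where Smad7 (-0.55) lost its call, 3 for the undivided germ against the parts at the cap stage, where Id4 (0.50) lost it, and 7 for the interaction with culture, where Id1 (-0.25) lost it, and no other call of a member changed. Depth limits Bmpr1b in the lingual and undivided groups most, with 12 to 91 read pairs a library.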
